A study of Homo sapiens with 6 samples.

Results

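The EGF family ligands and ERBB receptors were taken as the 10 genes of the deposited count table whose symbols are Egf, Areg, Ereg, Hbegf, Tgfa, Btc, Nrg1, Egfr, Erbb2 and Erbb3, and all 10 were found among its 22989 genes. The RNA-seq libraries compare 3 samples labelled LINC00115 KD with 3 samples labelled WT, all described as MDA-MB-231 PTX-resistant BCSC and called KD and control here. MDA-MB-231 is a human cell line from triple-negative breast cancer, PTX is paclitaxel, and the BCSC (breast cancer stem cells) were sorted from it as cells with aldehyde dehydrogenase activity. The KD cells express shRNA against the long non-coding RNA LINC00115, and the KD samples are named sh115-1 to sh115-3. The study also uses sh115-1 and sh115-2 as names of hairpins and gives sh115-2 for its RNA-seq, so whether the KD libraries carry the same hairpin or different ones is unsure. The labels call the controls WT. The study names a control shRNA, shC, for its knockdown assays in such cells, and whether the RNA-seq controls carried it is not given in the sources used here. The labels give no age, dose or time, and nothing in them says whether the 3 libraries of a group came from separate cultures, so the p-values measure the spread between these libraries, which may be technical.

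The EGF family ligands are made as membrane-anchored precursors, and proteases of the ADAM family cut them free. Egf, Tgfa and Areg bind the EGF receptor (Egfr), Hbegf, Btc and Ereg bind Egfr and Erbb4, and the neuregulins, such as Nrg1, bind Erbb3 and Erbb4. Erbb2 (HER2) binds no ligand and acts as the partner of the other receptors, and Erbb3 has little kinase activity of its own. In breast cancer, Erbb2 amplification defines a clinical subtype, and triple-negative lines such as MDA-MB-231 are known for high EGFR.

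The 6 libraries held between 36979221 and 38799331 counts, and no library was a copy of another, since replicates had chi-square values of 3.88 to 7.80 per degree of freedom where sampling alone gives about 1. The table's symbols are written as for mouse genes, with 4650 names of the Gm type and 1129 of the Rik type, and 16 of the 22989 equal a human symbol as written. The members equal human symbols apart from case. Every library held at least 36979221 counts on this gene set. Whether the reads came from human cells and were counted on a mouse annotation, or came from mouse cells, was not tested. The species behind each value, and with it the marker check and the use of human promoters, is therefore uncertain. No gene named LINC00115 was listed (0 genes), so the knockdown could not be checked, and each direction rests on the labels. Of 8 genes taken as high in MDA-MB-231 (Vim, Cd44, Axl, Cav1, Plau, Fn1, Msn and S100a4), all 8 had over 3 counts in every library. The lowest count was 3388 (Cav1, control replicate 2), and a bar of 3 counts cannot identify the line. At the adjusted p of 0.05, 3 of them were lower in KD and 3 higher. Over all 13497 genes tested, 36.7% were lower and 36.7% higher. S100a4 fell from 785 ± 34.1 to 341 ± 14.0 normalized CPM (log2 fold change −1.20). Among 9 luminal breast genes, Pgr, Epcam and Krt19 had at most 7 counts in any library, while Krt8, Krt18 and Gata3 had at least 1985 counts in every library. Among the luminal genes 6 were tested, and 4 were higher in KD and 2 lower at the same adjusted p. The shares of all genes tested were again 36.7% and 36.7%, and the median log2 fold change of the 6 was 0.77. Esr1, the estrogen receptor, rose from 29, 26 and 24 counts in control to 105, 82 and 104 in KD (log2 fold change 1.87), Krt18 and Krt8 rose by 0.87 and 0.67 on the log2 scale, and Gata3 fell by 0.85. The part of these shifts in the values of the members was not tested.

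Among the ligands with many reads, Tgfa and Btc fell and the others rose. Tgfa fell 3.86-fold and Btc 2.73-fold in the KD libraries, while Nrg1, Areg and Hbegf rose by 1.84-, 1.34- and 1.31-fold. The receptors Egfr and Erbb2 rose 1.62-fold each. Egf and Erbb3 were also higher, on few reads, and Ereg had reads in 1 library. These are bulk samples, in which fewer cells of a type and less RNA per cell cannot be told apart.

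After TMM scaling, each gene was tested by the quasi-likelihood method of edgeR, and it was called where the Benjamini-Hochberg adjusted p was under 0.05 and the fold change above 2, as in the methods of the study. Of the 10 members, 9 passed the filter on low counts. Tgfa and Btc were called lower, and Egf and Erbb3 were called higher. Over the 13497 genes tested, 9.98% were called lower and 10.2% higher. Without the threshold on the fold change, 2 members were lower and 7 higher, in a comparison where 36.7% of the genes tested were lower and 36.7% higher. The groups did not overlap for the 9 members tested, which also held for 75.6% of the genes tested. Egf and Erbb3 passed the filter through their KD libraries, so these counts are a description of the members.

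**Figure D1:**
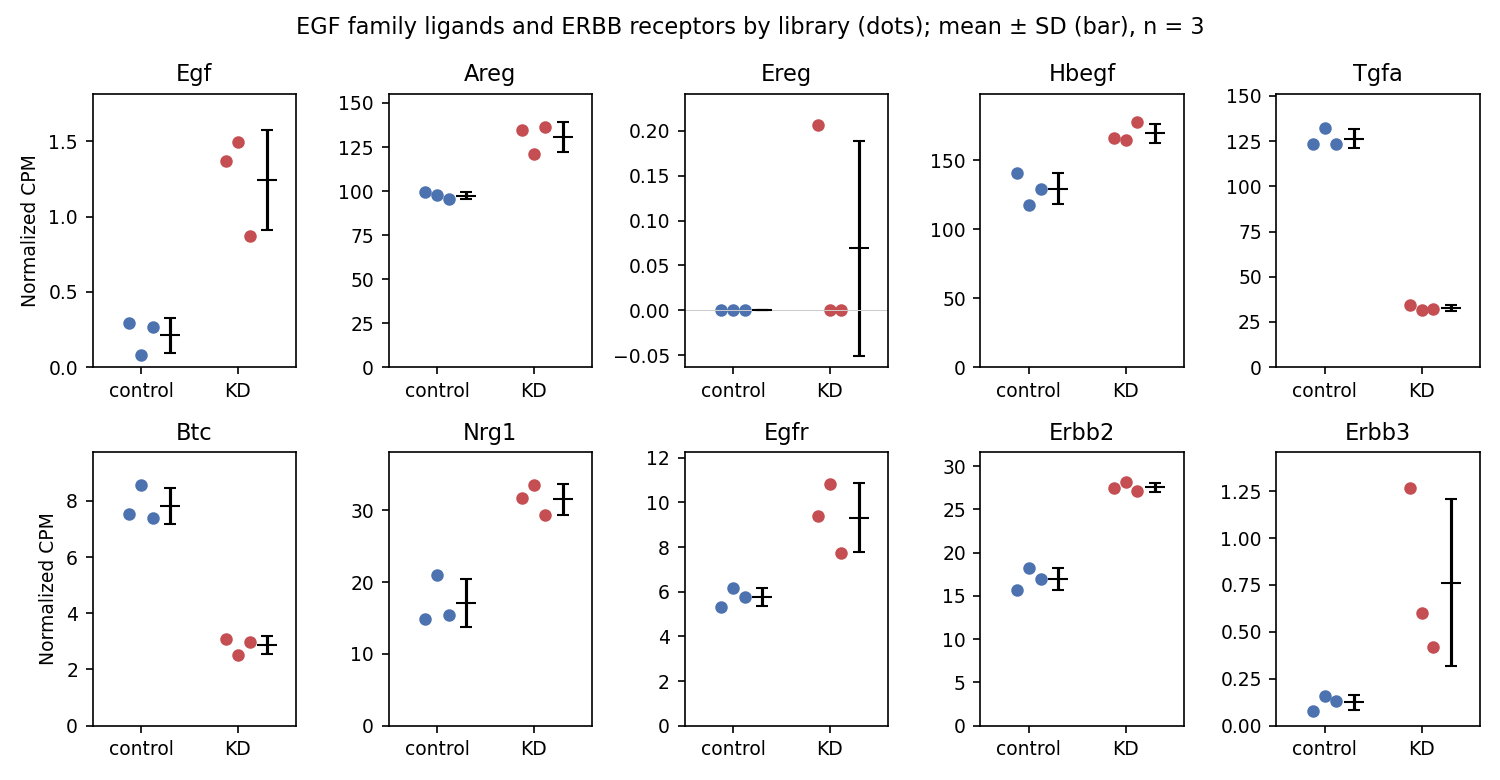
Normalized CPM (counts scaled to library totals, vertical axis, linear) of each member in the 3 control libraries (blue) and the 3 KD libraries (red), with the mean ± SD at the right of each group (n = 3); the SD bar of Ereg in KD reaches below 0. Tgfa and Btc lie lower in every KD library, Ereg has reads in 1 library, and the other members have their 3 KD libraries above their 3 control libraries.

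To show the regulatory sequence at the genes that fell past the threshold, the promoters of human TGFA and BTC are given from RefSeq (GRCh38.p14), with that of AREG, which stands beside BTC on human chromosome 4 and rose. The files use mouse-style symbols, so these are the promoters of the human genes of the same names. Each runs over 300 bases, from 250 before the start of the gene to 50 from the start on, 5′ to 3′ on the gene's strand. Capitals mark GCGTG or ACGTG (the core letters bound by HIF1, the factor the study follows), TGACTCA (AP-1) and GGGCGG (Sp1), each searched on both strands. The matches in these 3 promoters do not overlap each other.
TGFA, chr2:70553777-70554076, minus strand: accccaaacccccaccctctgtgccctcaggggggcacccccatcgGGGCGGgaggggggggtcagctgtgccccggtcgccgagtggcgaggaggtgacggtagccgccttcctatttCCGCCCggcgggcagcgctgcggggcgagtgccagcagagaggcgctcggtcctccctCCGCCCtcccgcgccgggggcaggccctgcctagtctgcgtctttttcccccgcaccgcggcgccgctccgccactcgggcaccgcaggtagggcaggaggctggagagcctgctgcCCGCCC
BTC, chr4:74794474-74794773, minus strand: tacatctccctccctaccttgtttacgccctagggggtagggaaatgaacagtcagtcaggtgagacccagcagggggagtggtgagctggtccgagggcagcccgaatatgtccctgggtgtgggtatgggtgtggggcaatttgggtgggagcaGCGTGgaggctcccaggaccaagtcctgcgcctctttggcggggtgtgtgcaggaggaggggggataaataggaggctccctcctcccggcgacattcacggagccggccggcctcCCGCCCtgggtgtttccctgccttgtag
AREG, chr4:74444886-74445185, plus strand: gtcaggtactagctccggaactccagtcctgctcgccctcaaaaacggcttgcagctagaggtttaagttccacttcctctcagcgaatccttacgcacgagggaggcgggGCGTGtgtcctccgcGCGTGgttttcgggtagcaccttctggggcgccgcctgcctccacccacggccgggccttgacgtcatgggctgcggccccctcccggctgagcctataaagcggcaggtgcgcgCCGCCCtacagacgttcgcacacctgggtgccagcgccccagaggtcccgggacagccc

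This TGFA promoter held 4 matches to GGGCGG and 0 to the HIF1 letters, whereas a second RefSeq start of TGFA, at chr2:70553397-70553696, held 1 match to GCGTG. The BTC promoter held 1 match to GCGTG and 1 to GGGCGG, and the AREG promoter 2 and 1. Over 10 promoters of 8 members, 5 held ACGTG or GCGTG, 2 held TGACTCA and 5 held GGGCGG. Promoters of NRG1 and ERBB3 were not read, so these counts leave out both genes. Among all 35116 promoters of this length, 48.4% held ACGTG or GCGTG, 4.95% held TGACTCA and 45.0% held GGGCGG. A match describes the letters of the window and not a bound site.

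Among the ligands of Egfr, Tgfa, a close relative of Egf that tumour cells often make for their own receptor, had 4640, 5002 and 4657 counts in the control libraries and 1335, 1151 and 1230 in the KD libraries. Every KD library was far below every control library. Its normalized CPM was 126 ± 5.37 in control and 32.8 ± 1.61 in KD (SD, n = 3 for both), a log2 fold change of −1.95 ± 0.05 (SE, 95% interval −2.05 to −1.84, adjusted p = 4.94e-27, edgeR's quasi-likelihood test).

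Btc encodes betacellulin, which binds both Egfr and Erbb4. It had 284, 323 and 279 counts in control and 120, 92 and 113 in KD, so that the groups were far apart on a much smaller number of reads. From 7.83 ± 0.637 to 2.86 ± 0.314 normalized CPM (SD, n = 3), the log2 fold change was −1.45 ± 0.17 (SE, 95% interval −1.79 to −1.11, adjusted p = 1.75e-09, edgeR).

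Areg encodes amphiregulin, an Egfr ligand released by ADAM17. It had 3737, 3686 and 3601 counts in control and 5217, 4441 and 5170 in KD. KD replicate 2 was the lowest of its group and still above each control. The normalized CPM rose from 97.4 ± 1.96 to 131 ± 8.41 (SD, n = 3), a log2 fold change of 0.42 ± 0.05 (SE, adjusted p = 2.74e-10, edgeR), which is below a fold change of 2.

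Hbegf, the heparin-binding ligand of Egfr and Erbb4, had 5298, 4452 and 4893 counts in control and 6428, 6047 and 6739 in KD. The control libraries varied more than for Areg, and the groups did not overlap. The normalized CPM was 129 ± 11.3 in control and 169 ± 6.96 in KD (SD, n = 3), a log2 fold change of 0.39 ± 0.05 (SE, adjusted p = 4.03e-09, edgeR). The count ratio of Areg to Hbegf, which needs no scaling of the libraries, was 0.756 ± 0.0638 in control and 0.771 ± 0.0387 in KD, a difference within the spread between libraries.

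Count ratios within a library separated Tgfa from these ligands. The ratio of Areg to Tgfa was 0.805, 0.737 and 0.773 in the control libraries and 3.91, 3.86 and 4.20 in the KD libraries, a 5.17-fold difference between the means. The ratio of Hbegf to Tgfa went from 1.03 ± 0.127 to 5.18 ± 0.338 (SD, n = 3). The ratio of Areg to Btc, neighbours in the human genome, went from 12.5 ± 0.944 to 45.8 ± 2.40. None of these ratios overlapped between the groups.

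Summed over the 7 ligand genes, the reads changed little, with 14530, 14257 and 14023 counts in control and 14387, 13018 and 14398 in KD. Scaled to the libraries, this was 371 to 386 normalized CPM in control and 355 to 379 in KD, which overlap. Within this sum, Tgfa took 31.9%, 35.1% and 33.2% of the ligand reads in control and 9.28%, 8.84% and 8.54% in KD. Areg took 25.7% to 25.9% in control and 34.1% to 36.3% in KD, and Hbegf 31.2% to 36.5% and 44.7% to 46.8%. The 95% Wilson intervals of these shares reach at most about 0.857 percentage points to each side and cover counting error only. Shares of reads also depend on transcript length, and the lengths of the counted gene models were not given. The shares and count ratios were therefore compared between libraries and not read as relative levels of different genes.

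**Figure D2:**
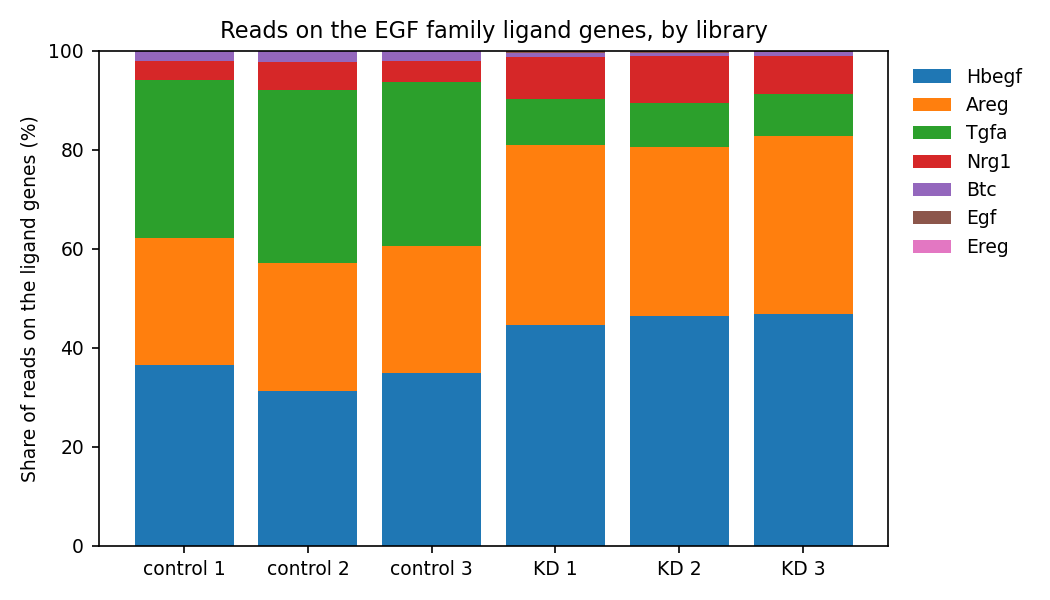
Share of the reads on the 7 EGF family ligand genes (vertical axis, %, from 0 to 100) taken by each gene in each of the 6 libraries. The Tgfa share lies between 31.9% and 35.1% in the control libraries and between 8.54% and 9.28% in the KD libraries.

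Nrg1, the neuregulin that binds Erbb3 and Erbb4, had 560, 791 and 583 counts in control and 1226, 1232 and 1113 in KD. Control replicate 2 stood above the other controls and below each KD library. The normalized CPM rose from 17.1 ± 3.36 to 31.5 ± 2.13 (SD, n = 3), a log2 fold change of 0.88 ± 0.09 (SE, 95% interval 0.69 to 1.07, adjusted p = 2.30e-10, edgeR). Nrg1 was thus just under a fold change of 2, and without control replicate 2 it was past it, at a log2 fold change of 1.06.

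The related neuregulin gene Nrg2, which stands outside the 10 members, rose most among the family genes tested. It had 35, 47 and 44 counts in control and 713, 696 and 745 in KD, and the normalized CPM went from 1.11 ± 0.164 to 19.0 ± 0.592 (SD, n = 3). Its log2 fold change was 4.09 ± 0.14 (SE, adjusted p = 3.10e-23, edgeR). The main partner receptors of the neuregulins were near the limit of counting, with Erbb3 at 3 to 6 counts in control and 16 to 49 in KD, and Erbb4 at 0 counts in control and 7, 1 and 0 in KD. Epgn, the remaining Egfr ligand, and Nrg4 had at most 6 counts in any library.

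Among the receptors, Egfr had 201, 232 and 218 counts in control and 364, 397 and 293 in KD. KD replicate 3 was the lowest of its group and still above each control. The normalized CPM rose from 5.75 ± 0.405 to 9.31 ± 1.55 (SD, n = 3), a log2 fold change of 0.69 ± 0.14 (SE, 95% interval 0.41 to 0.98, adjusted p = 4.91e-05, edgeR). This receptor, for which MDA-MB-231 cells are known, had under 10.9 normalized CPM in every library.

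Erbb2 had 592, 689 and 640 counts in control and 1061, 1033 and 1029 in KD, with little spread in the KD group. From 17.0 ± 1.27 to 27.6 ± 0.534 normalized CPM (SD, n = 3), the log2 fold change was 0.70 ± 0.08 (SE, 95% interval 0.54 to 0.86, adjusted p = 1.19e-09, edgeR). The count ratio of Egfr to Erbb2 was 0.340, 0.337 and 0.341 in control and 0.343, 0.384 and 0.285 in KD, so the KD values lay on both sides of the controls. The ratio of Egfr to Tgfa, its ligand, went from 0.0455 ± 0.00190 to 0.285 ± 0.0545 (SD, n = 3).

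**Figure D3:**
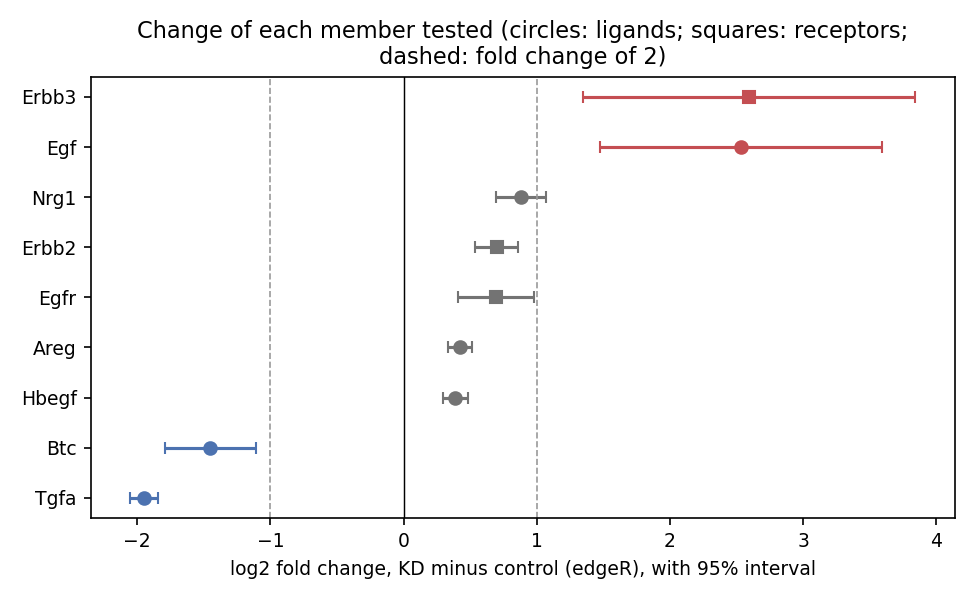
The log2 fold change (KD minus control, horizontal axis) of the 9 members tested, with 95% intervals. Circles are ligands, squares are receptors, blue and red mark members called lower and higher, and dashed lines mark a fold change of 2. Tgfa (−1.95) and Btc (−1.45) lie at the low end, and the intervals of Egf and Erbb3 are the widest.

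Egf and Erbb3 were called higher on few reads. Both passed the filter on low counts through their KD libraries, so their intervals and p-values describe them and are no separate support. Egf had 11, 3 and 10 counts in control and 53, 55 and 33 in KD, which is 0.212 ± 0.116 and 1.25 ± 0.333 normalized CPM (SD, n = 3), a log2 fold change of 2.54 ± 0.52 (SE, 95% interval 1.48 to 3.60, adjusted p = 5.53e-05, edgeR). Erbb3, the neuregulin receptor, had 3, 6 and 5 counts in control and 49, 22 and 16 in KD, which is 0.124 ± 0.0404 and 0.762 ± 0.446 normalized CPM, a log2 fold change of 2.60 ± 0.61 (SE, 95% interval 1.35 to 3.84, adjusted p = 0.000326, edgeR). For Erbb3, KD replicate 1 stood well above the other KD libraries, and for Egf, KD replicate 3 stood below the others. Ereg, which encodes epiregulin, had 0 counts in the control libraries and 8, 0 and 0 in KD, all in KD replicate 1, and was not tested. A count of 0 allows up to 3 counts.

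Many genes of organs, though not all, were higher in KD, as were Egf and Erbb3. In the body Egf is made mainly in the kidney tubule and, in mice, in the salivary gland. Among all genes tested, the groups did not overlap, in either direction, for 75.6%, and 36.7% were higher in KD at an adjusted p under 0.05. Of 16 kidney tubule genes, 12 had over 3 counts in each KD library and all KD values above all control values. In every control library, 9 of the 16 were at 0. Of those 9, Aqp2 (1, 0 and 4 counts), Calb1 (4, 2 and 4) and Pvalb (0, 0 and 1) were also near 0 in KD, and Calb1 and Pvalb mark the distal nephron. Cubn, an endocytic receptor of the proximal tubule, went the other way, from 315, 315 and 307 counts in control to 251, 215 and 223 in KD (log2 fold change −0.45, adjusted p = 0.00372, edgeR). The summed level of the 16 was 24.0 to 26.5 normalized CPM in control and 63.6 to 69.3 in KD. Umod, which like Egf is made in the distal nephron, had 0 counts in control and 76, 93 and 112 in KD, while Slc12a3, which defines the distal convoluted tubule, had 6, 6 and 5 counts in control and 9, 12 and 9 in KD. Of 12 lung epithelium genes, 11 were higher in the same way (75.6% of all genes tested did not overlap, in either direction). Of the 12, 7 were at 0 in every control library, among them Scgb1a1, with 1516, 1586 and 1843 counts in KD, and Sftpc, with 520, 561 and 589. The sum of the 12 was 38.8 to 43.7 normalized CPM in control and 118 to 134 in KD. Most of the control sum was Abca3, which was at 38.7 ± 2.88 in control and 42.9 ± 2.93 in KD. Of 8 salivary gland genes, 4 were in the table. Klk1 had 0 counts in control and 39, 37 and 43 in KD, Amy1 had 5, 1 and 2 in control and 8, 12 and 10 in KD, and Dcpp1 and Dcpp2 had 0 in every library. The epithelial gene Cdh1, whose protein is E-cadherin, had 2, 1 and 3 counts in control and 22, 30 and 31 in KD. The part of such RNA in the values of Egf and Erbb3 was not tested.

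Of 12 leukocyte genes, 11 were in the table. For 3 of them, Cd14, Lyz2 and Cd74, all KD values were above all control values (75.6% of all genes tested did not overlap, in either direction). The list summed to 55.5 to 67.4 normalized CPM in control and 105 to 110 in KD, and Cd14 alone went from 15.7 ± 2.39 to 50.9 ± 0.408 (SD, n = 3). Ptprc, the general leukocyte gene, had at most 13 counts in any library, and Cd3e had 0 counts in all. The 10 genes of fibroblasts and endothelium summed to 175 to 194 normalized CPM in control and 134 to 137 in KD, and the members of this list went both ways. The fibroblast gene Pdgfra fell from 177 ± 9.92 to 74.5 ± 1.39 normalized CPM. The endothelial gene Cdh5 rose from 14, 5 and 6 counts in control to 2175, 2136 and 2243 in KD (log2 fold change 8.01). It passed the filter on low counts through its KD libraries. The endothelial genes Pecam1, Kdr and Tek had at most 19 counts in any library.

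**Figure D4:**
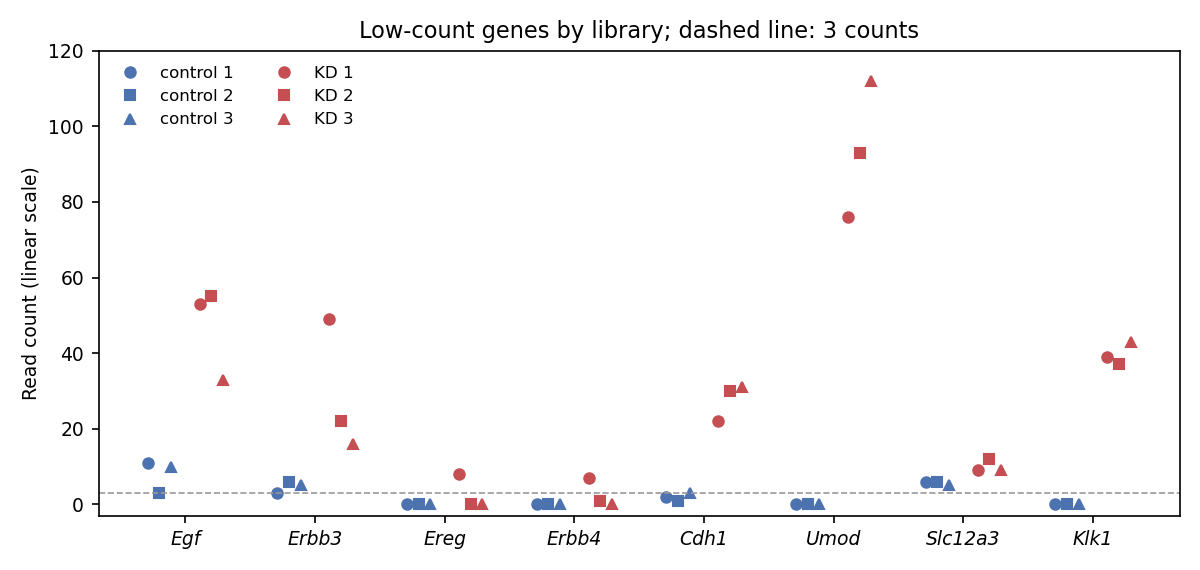
Read counts (vertical axis, linear) of Egf, Erbb3, Ereg and Erbb4, of the epithelial gene Cdh1, of the kidney genes Umod and Slc12a3 and of the salivary gland gene Klk1 in each control (blue) and KD (red) library, with marker shapes for the replicate number. Egf lies at 3 to 11 counts in control and 33 to 55 in KD, and Umod and Klk1 lie at 0 in every control library.

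The genes with the course most like that of Tgfa over the 6 libraries, by Euclidean distance of mean-centred log2 CPM, were Tcaf1 (distance 0.123, log2 fold change −1.99), Efna1 (0.152, −2.01) and Kdm5b (0.165, −1.97). Efna1 encodes an ephrin ligand and Kdm5b a histone demethylase. For Btc they were Gapdh (0.140, −1.42), Gamt (0.152, −1.44) and Chek2 (0.167, −1.44). Gapdh encodes a glycolytic enzyme and served as the reference gene of the study's qRT-PCR. With 3 libraries in each of 2 groups, such likeness describes mainly the size of the change.

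The genes that shed the ligands, restrain the receptors or pass on their signal were taken from lists chosen for their known roles. Over all genes tested, the median log2 fold change was −0.0061, and 36.7% were lower and 36.7% higher at an adjusted p under 0.05. Past the fold change of 2 as well, 9.98% of all genes tested were called lower and 10.2% higher. Of 13 shedding genes, 11 were tested, with 4 lower and 4 higher at an adjusted p under 0.05 and a median of 0.096. Past the fold change of 2, edgeR and DESeq2 called 0 lower and 1 higher, and at an unadjusted p under 0.05 edgeR had 4 lower and 5 higher. The one called higher was Adam8, a protease of the ADAM family, from 33.1 ± 1.43 to 94.3 ± 0.491 normalized CPM (SD, n = 3), a log2 fold change of 1.51. Adam17 and Adam10, the main sheddases of these ligands and chosen here after their values were seen, fell by 0.45 and 0.44 on the log2 scale (adjusted p = 9.97e-13 and 1.45e-12, edgeR).

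Of 21 genes of receptor inhibition and turnover, 20 were tested, with 10 lower and 7 higher and a median log2 fold change of −0.055. Among all genes tested, 36.7% were lower and 36.7% higher. Sh3kbp1, an adaptor of the ubiquitin ligase Cbl in receptor uptake, fell from 186 ± 6.05 to 78.9 ± 2.54 normalized CPM (log2 fold change −1.24). Ubash3b, a phosphatase that counteracts receptor turnover, fell from 43.9 ± 4.31 to 14.96 ± 0.803 (−1.55). Ptprj, a receptor-type phosphatase, rose from 45.0 ± 3.52 to 94.9 ± 1.34 (log2 fold change 1.078). Cblc, a Cbl ligase of epithelia, was higher on few reads, with 1, 5 and 2 counts in control and 30, 42 and 41 in KD (3.76).

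The shares of all genes tested were again 36.7% lower and 36.7% higher, and 9.98% and 10.2% past the fold change of 2. Of 36 genes that relay the signal to ERK, PI3K and STAT, 35 were tested, with 14 lower and 11 higher and a median log2 fold change of −0.034. Past the fold change of 2, edgeR called 0 lower and 2 higher, and DESeq2 0 and 3; at an unadjusted p under 0.05, edgeR had 14 lower and 11 higher. The adaptor Gab2 rose from 5.92 ± 0.715 to 14.5 ± 1.53 normalized CPM (log2 fold change 1.29) and the PI3K catalytic subunit Pik3cb from 10.6 ± 0.697 to 21.6 ± 1.43 (1.03). With upper quartile scaling, 1 gene of this list was called lower and 1 higher.

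Of 23 genes that growth factors induce, all 23 were tested, with 11 lower and 7 higher and a median log2 fold change of −0.057. Among all genes tested, 36.7% were lower and 36.7% higher. Ier3, an immediate early gene, fell from 653 ± 6.54 to 190 ± 14.0 normalized CPM (log2 fold change −1.78), and Spry1, a feedback inhibitor of receptor kinases, rose from 5.10 ± 1.10 to 14.0 ± 0.479 (1.46).

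**Figure D5:**
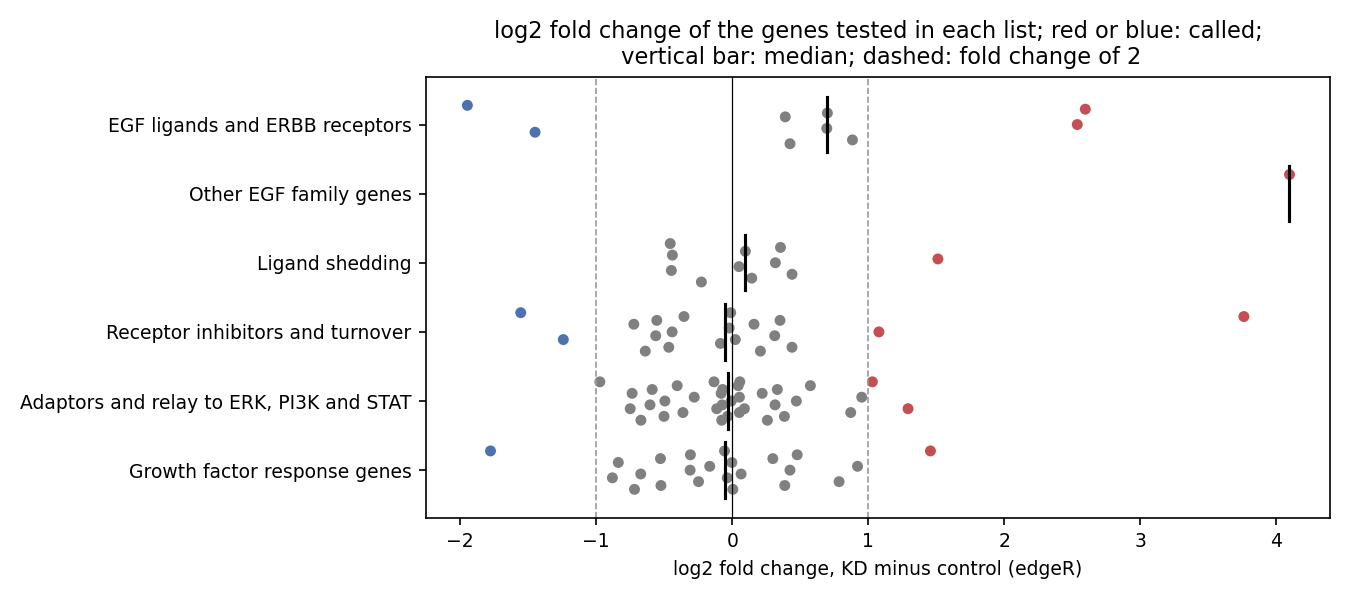
The log2 fold change (KD minus control, horizontal axis) of each gene tested in the members and 5 other lists, with list medians as vertical bars. Blue and red points were called lower and higher, and dashed lines mark a fold change of 2. The medians of the shedding, inhibitor, relay and response lists lie between −0.057 and 0.096.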

How the data were processed

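Per the study's methods, the authors trimmed adapters and mapped reads with HISAT2 to hg19; the submitters' processing notes list HISAT2, featureCounts, DESeq2 and hg38. The deposited file holds whole-number counts per gene, without normalization. Which annotation was counted, and whether by strand, is not given in the sources used here, so reads of overlapping genes may be shared. The columns of values not used number 0. Columns were matched to samples by the labels.

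Counts were analysed in R 4.3.3 with edgeR 4.0.16 over all genes: filterByExpr (minimum count 10, minimum total count 15), TMM, quasi-likelihood test by group, and Benjamini-Hochberg adjustment over 13497 genes. Standard errors (SE) were derived from log2 fold changes and F values (size over root F). Normalized CPM (counts scaled to the library) use the library totals, 36979221 to 38799331 counts, multiplied by TMM factors of 0.990 to 1.01. The script was tested on simulated data.

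The members and lists were chosen with earlier results of these data known. All members are named; of the other lists, genes past both thresholds (at most 6 each); of the marker lists, up to 3 genes with over 3 counts in every library of a group; and the 3 genes nearest to each of the 2 called members with the most counts. For these distances edgeR's log2 CPM with a prior count of 2 was used, chosen after an offset of 0.5 CPM had been tried. Marker genes at or near 0 and other genes outside this rule were named after their values were seen. Alternatives were other scalings, filters, DESeq2 1.42.0, each replicate left out, a replicate block and a test against a fold change of 1.5.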

Additional observations from a re-analysis of the deposited data

How the results depend on the processing

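Of 124 values of the 9 members tested under the alternatives, 122 kept their direction and their call (called or not), and 0 changed direction. The exceptions were both of Nrg1, not called in the report. It was called without control replicate 2 (log2 fold change 1.06) and in the test against a fold change of 1.5, where the adjusted p alone makes the call (log2 fold change 0.88, adjusted p = 0.00151, edgeR). In the latter test Areg and Hbegf (adjusted p = 1 for both), Egfr (0.252) and Erbb2 (0.0843) were over the adjusted p threshold of 0.05 that they pass in a test against no change. With at least 10 counts in every sample, 0 members were called higher, because Egf and Erbb3 are removed by that filter, and 1 gene of receptor inhibition and turnover was called higher. Of all genes, that filter left 903 called higher and 919 lower, against 1381 and 1347 with the filter of the report. With upper quartile scaling, 1 relay gene was called lower and 1 higher. In the test against a fold change of 1.5, 4 relay genes were lower and 4 higher, and 4 response genes were lower and 3 higher. With each replicate left out, the relay genes called higher ranged from 1 to 2 (1 without control replicate 2 and without KD replicate 3) and the response genes called lower from 1 to 2 (2 without control replicate 2). The cause was not tested for these counts.

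Across the fits that left out a replicate, log2 fold changes lay between −1.98 and −1.91 for Tgfa, −1.505 and −1.35 for Btc, 2.15 and 2.83 for Egf and 2.02 and 2.89 for Erbb3. Scalings moved the median of all genes by at most 0.041 in size (−0.041, upper quartile). Samples with the same number did not deviate together (correlations of deviations −0.020, −0.019 and 0.014), and with the replicate block 2 members were called lower and 2 higher, as were 1316 and 1360 of all genes, against 1347 and 1381 without it. Without the low-count filter, Ereg had an adjusted p of 0.0709 in edgeR's test, on 8 counts of 1 library. Depth limits Egf, Erbb3, Ereg and Erbb4, each at 55 counts or fewer in every library.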
